A study of Mus musculus with 90 samples.

Results

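The effect of a meal on liver RNA was examined in diet-induced obese (DIO) mice, by setting livers of fed DIO mice against livers of DIO mice that received no food at the start of the dark phase. All RNA libraries with these labels were taken, 3 fed and 3 unfed, which are 6 of the 54 RNA libraries and of the 90 samples of the series. The mice were male wild type C57BL/6 animals that had eaten a high-fat diet (HFD) freely for 10 weeks and then received that food only at night for 4 days (night-restricted feeding, NRF). They were killed at ZT14, the number of hours after the lights came on, and each library held poly(A) RNA from the liver of a single mouse. The diet was begun in young mice, and all groups shared the NRF training. The question put to these libraries was which responses to food remained after the diet. Lean mice of the same strain, on chow for the same 10 weeks with the same NRF training, gave 6 further libraries (3 unfed and 3 fed) that served for comparison, and no library was used in both contrasts. Since DIO mice were fed the HFD and lean mice chow, the kind of food in the meal and the obesity of the mice cannot be told apart in any difference between them.

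Food reaching the liver at the end of the daily fast turns the organ from release to storage of fuel. Insulin rises and excludes FOXO1, a factor that drives fasting genes, from the nucleus, while glucocorticoids, which act through the glucocorticoid receptor (GR), fall. The liver then makes glycogen, fat, ribosomes and large amounts of secreted protein, and its endoplasmic reticulum (ER) must fold that protein. When the load of unfolded protein grows, the sensors IRE1, PERK and ATF6 raise the transcription of ER chaperones, a program called the unfolded protein response.

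Values are given as RPKM, the authors' reads per kilobase of transcript scaled to the reads of each library, and a fold change is the difference of log2(RPKM + 0.5) with its SE. Gene calls are those of limma at a Benjamini-Hochberg adjusted p under 0.05 over the 11434 genes tested. In liver tissue, fewer cells of a type and less RNA per cell cannot be told apart. Depth, estimated from the steps of low RPKM values, was 16900000 to 27400000 reads in 11 of the 12 libraries and 60800000 reads in fed DIO mouse 1. Hepatocyte markers such as Alb and Apoa1 summed to between 65600 and 74000 RPKM in the 6 DIO libraries. No marker tested of the 10 cell type lists was called in DIO mice, where 7.64% of all genes were. Some lists had few markers tested. The number was 0 of 7 for neutrophils, 1 of 10 for T, B and NK cells and 2 of 11 for exocrine pancreas. Adipocytes had 3 of 7 and bile duct cells 4 of 7. Summed adipocyte markers were 59.3 RPKM in unfed DIO mouse 2, against 9.98 and 13.5 RPKM in the other unfed DIO mice. They were 12.5 to 27.6 RPKM in fed DIO mice. Summed markers of Kupffer cells and macrophages were 69.4 to 92.5 RPKM in unfed and 54.6 to 98.0 RPKM in fed DIO mice. Those of red blood cells reached 460 RPKM in unfed DIO mouse 1 and were 159 and 161 RPKM in the other unfed DIO mice and 180 to 363 RPKM in the fed ones. In lean mice 7 of 10 liver endothelial markers fell with the meal (median -0.46), where 7.28% of all genes tested fell. So did 1 of 10 Kupffer cell markers and 1 of 10 stellate cell markers tested. Summed endothelial markers were 106 to 125 RPKM in unfed and 75.3 to 82.5 RPKM in fed lean mice, against 57.7 to 81.7 and 69.9 to 78.3 RPKM in DIO mice, and their part in the lean results and in the differences between the diets was not tested.

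Unfed DIO mouse 1 stood apart from the other unfed DIO mice. On the first principal component, which held 33% of the variance of the 12 libraries, it lay at -21, near the unfed lean mice at -32.4 to -24.6, whereas unfed DIO mice 2 and 3 lay at -1.5 and 3.1 and the fed DIO mice between 13.8 and 23.8. The median SD of a gene among the unfed DIO mice was 0.171 on the log2 scale, against 0.122 in fed DIO, 0.137 in unfed lean and 0.114 in fed lean mice. Of 78 named genes called in DIO mice, 27 were no longer called without it, 47 without fed DIO mouse 2 and 44 without fed DIO mouse 3.

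The meal raised 591 genes in DIO livers (5.17% of genes tested) and lowered 283 (2.48%), together 7.64%. At an adjusted p under 0.01 the calls were 140 genes (1.22%). The median change was 0.53 among the genes that rose, -0.59 among those that fell and 0.02 over all genes tested. The change was larger than 1 on the log2 scale for 70 of the genes that rose and 37 of those that fell. All 3 fed mice lay above all 3 unfed mice for 590 of the 591 genes, a separation that 16.9% of all genes tested showed, and below them for 282 of the 283, against 10.9% of all genes. The genes were chosen by a test on these mice, so the separation describes the choice and does not support it. Without fed DIO mouse 2 the counts were 139 and 57, and without fed DIO mouse 3 they were 183 and 62. Without unfed DIO mouse 1 they were 429 and 169. When the 6 DIO libraries were fitted alone, 51 genes rose and 12 fell.

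Genes of the ER were prominent among the largest rises and account for 6 of the 15 named by size. Of 22 genes tested from a list of ER chaperones and unfolded protein response genes, 18 rose and none fell, where 5.17% of all genes rose. Their median change was 0.98, against 0.02 over all genes tested, and all 22 had a change above 0. The 18 genes that rose include chaperones, protein disulfide isomerases and parts of the machinery that returns misfolded protein to the cytosol for breakdown. The count stayed at 18 without unfed DIO mouse 1. In lean mice 15 of the 22 rose and 1 fell, where 16.1% and 7.28% of all genes did. The lean median of the list was 0.67.

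Creld2, a secreted ER stress protein, had 9.03, 9.53 and 16.9 RPKM in the unfed and 61.5, 113 and 125 RPKM in the fed DIO mice. The groups do not overlap, and the change of 3.02 ± 0.35 was the largest rise of the genes named here (limma, adjusted p = 0.0023). Hspa5, which encodes BiP, the main HSP70 chaperone of the ER, had 158, 130 and 211 RPKM in unfed and 514, 802 and 840 RPKM in fed DIO mice. It was the most abundant gene of the list in every fed DIO mouse, and its change was 2.10 ± 0.23 (limma, adjusted p = 0.0023). Sdf2l1, a partner of BiP that holds misfolded proteins in solution, had 7.14, 6.6 and 4.71 RPKM in unfed and 22.6, 49.1 and 44.2 RPKM in fed DIO mice, a change of 2.50 ± 0.30. Manf, a secreted protein released on ER stress, rose by 2.41 ± 0.28, and Hyou1, which exchanges nucleotide on BiP, rose by 2.30 ± 0.24. In both genes the lowest fed DIO mouse, with 54.7 and 68.9 RPKM, lay above the highest unfed one, with 19 and 21.4 RPKM. Fed DIO mouse 1, the library of greatest depth, was the lowest of the 3 fed DIO mice for 20 of the 22 genes.

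The disulfide isomerases Pdia4, Pdia3 and Pdia6 rose by 1.47, 0.83 and 0.66. The lectin chaperones Calr and Canx, which hold glycoproteins during folding, rose by 0.94 and 0.39. Syvn1, the ubiquitin ligase of ER-associated degradation, had 15.6, 16.1 and 21.0 RPKM in unfed and 60.2, 100 and 104 RPKM in fed DIO mice, and its partner Sel1l moved from between 23.9 and 25.2 RPKM to between 40.3 and 47.9 RPKM. Both rose (limma, adjusted p = 0.0028 and 0.0023). Without fed DIO mouse 2, the calls of Pdia6, Canx, Edem1 and Herpud1 were lost, and their lowest changes without 1 DIO mouse were 0.53, 0.36, 0.43 and 0.83. The 4 members that were not called were Xbp1, Atf6, Derl3 and Sec61b. Xbp1, the transcription factor that IRE1 activates by splicing, had 79.4, 39.8 and 102 RPKM in unfed and 85.5, 108 and 97.2 RPKM in fed DIO mice, and these groups overlap. Spliced and unspliced Xbp1 RNA are not separated in a value per gene. The change of Xbp1 was 0.49 in DIO mice and 1.29 in lean mice, and the difference between them was not called (limma, adjusted p = 0.37).

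**Figure D1:**
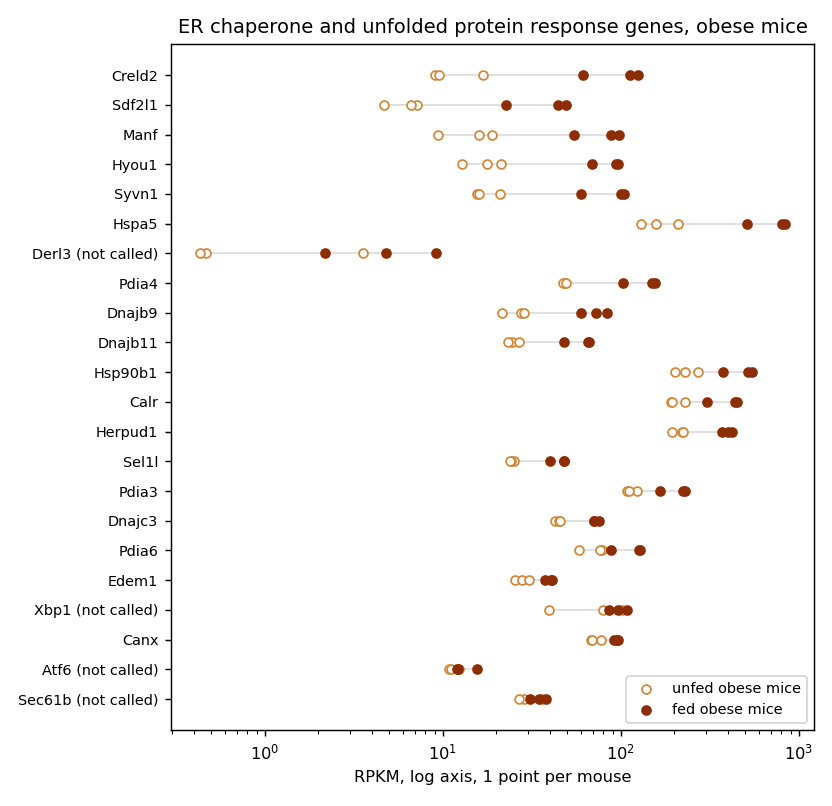
RPKM (log axis) of the 22 ER chaperone and unfolded protein response genes tested, with 1 open point for each unfed and 1 filled point for each fed DIO mouse, ordered by log2 fold change. The filled points lie right of the open ones without overlap for 18 genes, and Xbp1, Atf6, Derl3 and Sec61b were not called.

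Many promoters of this program carry the ER stress response element, to which ATF6 binds together with NF-Y. The element was searched as CCAAT followed by any 9 bases and CCACG, on both strands of the promoter sequences of RefSeq (GRCm38.p6), which span 250 bases before to 50 bases after each start. Of the 11434 genes tested, 9003 had a promoter in that table. The motif was found in 17 of these 9003 genes (0.189%), in 10 of 481 that rose in DIO mice (2.08%), in 0 of 233 that fell, and in 9 of 19 of the ER list (47.4%). Of the 17 genes with the motif, 10 rose and 0 fell in DIO mice, and 8 rose in lean mice. A match of letters is a description and does not show binding, and an element with other letters would be missed. The sites of the ER list are shown with 4 bases on each side, written on the strand of the motif, with the NF-Y box CCAAT and the ATF6 box CCACG in capitals, to show that these promoters share both boxes while the 9 bases between them differ.
Creld2: tggaCCAATtgaggctcgCCACGagaa
Syvn1: gcaaCCAATcggcggtagCCACGggaa
Hspa5: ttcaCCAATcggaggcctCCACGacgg
Derl3: ctagCCAATggggaagtcCCACGgtag
Hsp90b1, near site: ctcaCCAATcgtgcctcaCCACGcact
Hsp90b1, far site: aagcCCAATcgcaaggagCCACGcttc
Calr: tgggCCAATgagggtcgaCCACGcgtt
Dnajc3: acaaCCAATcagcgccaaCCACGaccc
Pdia6: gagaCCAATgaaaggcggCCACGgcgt
Canx: ttgaCCAATcaccacgctCCACGaaga

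The sites lay 25 bases (Syvn1) to 193 bases (the far site of Hsp90b1) before the start of transcription. The site of Hspa5 at chr2:34772025-34772043 ended 46 bases before the start and was read on the strand of the gene, and that of Hsp90b1, the HSP90 of the ER, at chr10:86705533-86705551 ended 88 bases before it on the opposite strand. The site of Creld2 at chr15:88819520-88819538 lay 107 bases before its start and, at the same coordinates, 201 bases before the start of Alg12, which is transcribed the other way. Alg12 encodes a mannosyltransferase that builds the glycans added to proteins in the ER, and was not on the list. It had 1.79, 2.91 and 3.00 RPKM in unfed and 4.90, 7.10 and 6.97 RPKM in fed DIO mice, a change of 1.16 ± 0.18 (limma, adjusted p = 0.0059). Ero1b, the ER oxidase that recharges disulfide isomerases, also held a site and rose by 0.86 ± 0.17 (limma, adjusted p = 0.016). Its older symbol stood on the list, so it was not counted there. The upstream sequence of Hspa5 is shown to place the element among the other CCAAT boxes in front of the gene, with the boxes of the exact match in capitals (GRCm38.p6, chr2:34771840-34772089, plus strand).
Hspa5 upstream: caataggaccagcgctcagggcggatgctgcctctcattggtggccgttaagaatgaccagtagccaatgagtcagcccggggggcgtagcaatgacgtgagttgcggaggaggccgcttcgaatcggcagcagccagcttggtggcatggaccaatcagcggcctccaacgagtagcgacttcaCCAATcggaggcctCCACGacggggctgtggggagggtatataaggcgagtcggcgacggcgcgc

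Cytosolic chaperones and the makers of ribosomes rose as well. Of 15 heat shock genes tested, 9 rose and none fell, with a median change of 0.89, where 5.17% of all genes rose. Hsph1, which exchanges nucleotide on cytosolic HSP70, had 6.68, 19.3 and 24.4 RPKM in unfed and 58.4, 47.6 and 37.6 RPKM in fed DIO mice, and Hspa8, the constitutive HSP70, had 51.5, 79.8 and 97.1 RPKM against 158, 157 and 156 RPKM. Unfed DIO mouse 1 was the lowest mouse in both, and without it Hspa8 still rose whereas Hsph1 was no longer called. Bag3, a co-chaperone of selective autophagy, rose by 1.34 ± 0.23 and Hsp90aa1 by 1.40 ± 0.31. Of 29 ribosome biogenesis genes, 11 rose and none fell, with a median of 0.40, again against 5.17% of all genes. Nolc1, which shuttles small nucleolar particles, had 7.51, 6.90 and 9.57 RPKM in unfed and 15.9, 22.3 and 16.2 RPKM in fed DIO mice (1.13 ± 0.18), and the rRNA methyltransferase gene Nop2 rose by 0.90 ± 0.16. Rrp12 and Nop58, of the same pathway, rose by 0.93 and 0.88. In lean mice 11 of the 15 heat shock genes and 19 of the 29 ribosome biogenesis genes rose, where 16.1% of all genes did. The lean medians were 0.98 and 0.49, and the difference between the diets was called for no gene of either list. Without unfed DIO mouse 1 the counts in DIO mice were 7 for heat shock and 5 for ribosome biogenesis. Nop58 was also lost without unfed DIO mouse 1. Without fed DIO mouse 2, Hsph1, Hsp90aa1, Hspa8, Rrp12 and Nop58 were not called, and their lowest changes without any 1 DIO mouse were 1.10, 0.98, 0.83, 0.75 and 0.63.

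Of genes that the list of ATF4 and amino acid stress holds, 1 of 14 rose and 1 fell, where 5.17% of all genes rose and 2.48% fell. With 1 gene in each direction, the list cannot be told apart from these shares. Ddit3, which encodes the ER stress factor CHOP, moved from 5.57, 8.91 and 9.52 RPKM to 16.6, 22.7 and 26.8 RPKM and rose by 1.41 ± 0.20. Chac1, a glutathione-degrading enzyme induced by ATF4, had 2.96, 2.90 and 2.40 RPKM in unfed and 0.317, 0.553 and 0.699 RPKM in fed DIO mice, and fell by 1.68 on the log2 scale (limma, adjusted p = 0.0051). The other 12 were not called, and the median of the list was -0.13.

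Among secreted proteins, Angptl8, a hormone that inhibits lipoprotein lipase and is induced by insulin, had 15, 13.5 and 18.2 RPKM in unfed and 73.1, 134 and 92.9 RPKM in fed DIO mice. It rose by 2.61 ± 0.25 in DIO mice and by 4.65 in lean mice, where it went from between 6.31 and 8.44 RPKM to between 142 and 268 RPKM. The rise was smaller in DIO mice by 2.04 ± 0.35 on the log2 scale (difference between the meal effects, limma, adjusted p = 0.031), a call that was lost without each of 7 of the 12 mice, among them unfed DIO mouse 3 and fed DIO mice 1 and 3. Tsku, a secreted leucine-rich protein, had between 33.6 and 36.5 RPKM in unfed and 72.8 to 124 RPKM in fed DIO mice and rose by 1.39 ± 0.21. These were the only 2 of 19 genes called on the list of secreted hormones, where 7.64% of all genes were called.

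Outside these lists, Tubb2a, a beta tubulin, had 3.26, 6.27 and 3.40 RPKM in unfed and 14.9, 15.2 and 21.8 RPKM in fed DIO mice (1.92 ± 0.28). Pitx3, a homeobox factor best known from the eye lens and dopamine neurons, had 0.186 to 0.647 RPKM in unfed and 2.22 to 3.62 RPKM in fed DIO mice. It rose by 1.77 ± 0.41 in DIO mice and its lean values were 0.137 to 1.64 RPKM unfed and 0.077 to 0.241 RPKM fed. The difference between the diets was not called for Pitx3 (limma, adjusted p = 0.051). The rise of Pitx3 was lost without unfed DIO mouse 1 or without fed DIO mouse 2 or 3, with changes of 1.55 to 1.92 without 1 DIO mouse.

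Genes of glycogen turnover moved in both directions. Ppp1r3c, a subunit that brings phosphatase to glycogen, had 4.65, 18.4 and 13.5 RPKM in unfed and 34.4, 32.8 and 32.4 RPKM in fed DIO mice and rose by 1.60 ± 0.39. In lean mice its change was -0.83, and the difference was not called (limma, adjusted p = 0.071). Ppp1r3g, another such subunit, had 2.70, 1.95 and 0.698 RPKM in unfed and 0.083, 0 and 0.022 RPKM in fed DIO mice, and it fell by 1.98 on the log2 scale. Gys2, the liver glycogen synthase, fell by 0.58 and Gyg, which primes glycogen, fell by 0.79. In all, 1 of 10 genes of the list rose and 3 fell, where 5.17% of all genes rose and 2.48% fell, and 1 rose and 1 fell in lean mice. Each of these calls was lost without fed DIO mouse 2 and without fed DIO mouse 3, and those of Ppp1r3g, Gys2 and Gyg also without unfed DIO mouse 1. In number, Ppp1r3c was lost without 3, Ppp1r3g and Gys2 each without 4 and Gyg without 5 of the 6 DIO mice. Without 1 DIO mouse the changes were 1.05 to 1.99 for Ppp1r3c, -2.39 to -1.68 for Ppp1r3g, -0.69 to -0.43 for Gys2 and -0.93 to -0.66 for Gyg.

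Scd1, the desaturase that makes oleate, had the largest fall of the genes named here. It stood at 2670, 321 and 163 RPKM in unfed and 32.7, 40.6 and 67.7 RPKM in fed DIO mice. The groups do not overlap, but unfed DIO mouse 1 was far above the other unfed mice, and the change was -3.52 ± 0.82 with it (limma, adjusted p = 0.028) and -2.34 without it, where the call held. The call was lost without each of the fed DIO mice, and the changes without 1 DIO mouse ran from -4.35 to -2.34. The lean mice had 1300 to 4300 RPKM unfed and 1230 to 1510 RPKM fed, a change of -0.57 that was not called. The difference between the diets was not called for Scd1 either (-2.94, limma, adjusted p = 0.27). Elovl3, an elongase of very long fatty acids, went the other way, from 25.2, 86.8 and 41.6 RPKM to 165, 188 and 303 RPKM in DIO mice (2.22 ± 0.52). Its call was lost without unfed DIO mouse 1 or 3 or fed DIO mouse 2 or 3, with changes of 1.80 to 2.68. In lean mice the change of Elovl3 was -0.47, and the difference was not called (limma, adjusted p = 0.13). The other 16 of 18 fatty acid synthesis genes were not called, and neither were any of 25 cholesterol genes. Most members had a change below 0 in DIO mice, with 5 of the 18 and 4 of the 25 above 0. The medians of these lists were -0.44 and -0.57 in DIO mice and 0.13 and 0.19 in lean mice. The difference between the diets was called for 1 of the 18 (Srebf1) and for none of the 25. Fasn, the fatty acid synthase, had 79.5, 12.6 and 9.97 RPKM in unfed and 29.1, 31.9 and 23.5 RPKM in fed DIO mice. Its fed values lay above unfed mice 2 and 3 and below unfed mouse 1, and the change was 0.36 ± 0.62. Without that mouse Fasn rose by 1.28 and was called. Sqle, an early enzyme of sterol synthesis, had 39.1, 1.90 and 3.09 RPKM in unfed and 1.52, 16.0 and 1.54 RPKM in fed DIO mice, a change of -0.77 ± 0.99. Nsdhl and Msmo1, which remove methyl groups from sterols, had the largest changes of the cholesterol list, -1.49 and -1.21, and their highest value was again in unfed DIO mouse 1, at 57.5 and 187 RPKM. Slc2a5, the fructose carrier, and Lpin2, a phosphatidate phosphatase, fell by 0.98 and 1.04. These calls were lost without 5 and 4 of the 6 DIO mice, unfed DIO mouse 1 among them, with changes of -1.19 to -0.75 and -1.27 to -0.76 without 1 DIO mouse.

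**Figure D2:**
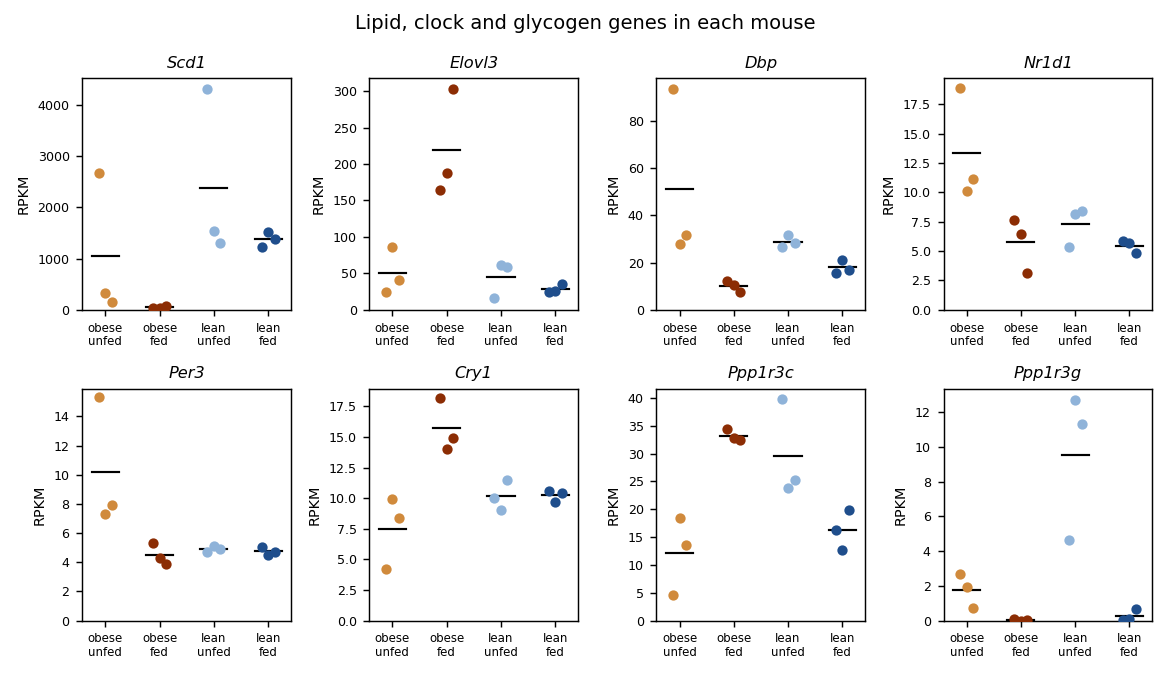
RPKM of Scd1, Elovl3, Dbp, Nr1d1, Per3, Cry1, Ppp1r3c and Ppp1r3g, with 1 point per mouse (mice 1 to 3 from left to right in each group) and the mean as a line. The left point of the unfed DIO group, mouse 1, is the highest of its group for Scd1, Dbp, Nr1d1, Per3 and Ppp1r3g and the lowest for Elovl3, Cry1 and Ppp1r3c.

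Clock genes were called in DIO mice in both directions, 3 of 13 higher and 3 lower, against 5.17% and 2.48% of all genes. In lean mice 3 of the 13 rose and 5 fell, where 16.1% and 7.28% of all genes did. Dbp, an output factor that is switched on directly by CLOCK and BMAL1, had 93.6, 27.8 and 31.7 RPKM in unfed and 12.4, 10.4 and 7.70 RPKM in fed DIO mice. It fell by 2.07 on the log2 scale (limma, adjusted p = 0.010), and by 1.53 without unfed DIO mouse 1, where it was still called. Per3, a period gene, fell by 1.03 from 15.3, 7.30 and 7.90 RPKM to 5.29, 4.26 and 3.88 RPKM. Nr1d1 and Nr1d2, which encode the REV-ERB repressors, fell by 1.18 and 0.98. Cry1, a repressor of the clock's negative limb, had 4.19, 9.90 and 8.38 RPKM in unfed and 18.2, 14 and 14.9 RPKM in fed DIO mice and rose by 1.09 ± 0.24. In lean mice Nr1d2 also fell, by 1.16 (limma, adjusted p = 0.0095), whereas the changes of Cry1 and Per3 were 0.01 and -0.04 there and were not called. The difference between the diets was not called for Cry1, Per3, Nr1d1 or Dbp (limma, adjusted p = 0.17 to 0.40), so an effect particular to DIO mice was not shown. Unfed DIO mouse 1 had the most extreme value of its group in each of these genes. Without it, Nr1d1 and Nr1d2 were no longer called and Per3 alone of the core clock list fell. Without fed DIO mouse 2 or 3, none of Per3, Nr1d1, Nr1d2, Cry1 and Per2 was called, and their changes without 1 DIO mouse were -1.22 to -0.71, -1.40 to -0.83, -1.2 to -0.69, 0.75 to 1.32 and 0.66 to 0.97. Of the 14 clock output genes 3 fell, against 2.48% of all genes. Besides Dbp these were Upp2, a uridine phosphorylase, which fell by 1.16, and Cyp2a5, a cytochrome P450, which fell by 0.77. The calls of Upp2 and Cyp2a5 were lost without fed DIO mouse 2 or 3, and that of Cyp2a5 also without unfed DIO mouse 1 or 3 or fed DIO mouse 1 (-1.29 to -0.93 and -0.95 to -0.52 without 1 DIO mouse). Per2, another period gene, rose by 0.82 in DIO mice and also rose in lean mice, and it was named after its value had been seen.

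Genes lowered by the meal included known targets of insulin and fasting signals. Igfbp1, a binding protein for insulin-like growth factors that FOXO1 drives, had 15.9, 26.0 and 16.1 RPKM in unfed and 5.90, 4.38 and 1.48 RPKM in fed DIO mice. It fell by 2.29 on the log2 scale in DIO mice (SE 0.42, limma, adjusted p = 0.012). Rgs16, a brake on G protein signalling, had 56.6, 15.9 and 11.4 RPKM in unfed and 4.78, 3.59 and 1.2 RPKM in fed DIO mice, a change of -2.75 that was not called without unfed DIO mouse 1 or fed DIO mouse 2 or 3 (-3.20 to -2.07 without 1 DIO mouse). Depp1, a FOXO-induced regulator of autophagy, went from between 23.9 and 39.0 RPKM to between 1.48 and 12.8 RPKM, a change of -2.24 (limma, adjusted p = 0.047) that was lost without 5 of the 6 DIO mice. Klhl24, a ubiquitin ligase adaptor, fell by 1.5 and Gpcpd1, which splits glycerophosphocholine, by 1.48, from 113, 89.2 and 98.9 RPKM to 34.7, 37.7 and 34.6 RPKM. Slc7a2, a carrier of cationic amino acids, fell by 1.36. Among immediate early genes, Egr1 and Junb fell by 1.54 and 1.16, as 2 of 14, where 2.48% of all genes fell. The call of Junb was lost without fed DIO mouse 2 (-1.29 to -1.04 without 1 DIO mouse). Ulk1, the kinase that starts autophagy, fell by 0.70, the autophagy gene Atg14 by 0.54, the lipase Pnpla2 by 0.55 and the sterol exporter Abcg8 by 0.73. Without fed DIO mouse 3, Egr1, Ulk1, Atg14, Pnpla2 and Abcg8 were not called, and without unfed DIO mouse 1 Ulk1, Atg14 and Pnpla2 were not, with changes of -1.88 to -1.27, -0.83 to -0.60, -0.66 to -0.37, -0.68 to -0.45 and -0.83 to -0.62 without 1 DIO mouse. In number, the call of Pnpla2 was lost without 5, those of Ulk1 and Atg14 each without 4 and that of Abcg8 without 3 of the 6 DIO mice. Clec2h, a C-type lectin, Gnat1, the transducin of rod cells, and B3galt1, a galactosyltransferase, fell by 2.14, 1.66 and 1.37, calls that were lost without fed DIO mouse 3, and that of Clec2h without 5 of the 6 DIO mice, unfed DIO mouse 1 among them (-2.70 to -1.59, -1.99 to -1.13 and -1.63 to -1.17 without 1 DIO mouse). The call of Gnat1 was also lost without fed DIO mouse 2. The lean changes of Clec2h, Gnat1 and B3galt1, of -0.66, 0.37 and 0.01, were not called, nor was the difference between the diets (limma, adjusted p = 0.083 to 0.38).

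Few genes of fasting metabolism passed the test. None of 12 gluconeogenesis genes, 25 amino acid breakdown genes, 7 urea cycle genes and 30 fatty acid oxidation genes was called in DIO mice, with medians of -0.03, -0.07, 0.11 and 0.14. Since 7.64% of all genes were called, lists of this size would hold few called genes at that share. The members with the largest changes were Got1 and Sds, which break down aspartate and serine (-0.70 and -0.47), Nags and Ass1 of the urea cycle (0.31 and -0.27), and Cyp4a14, an omega-hydroxylase (1.41 ± 0.99). None of 5 alpha arrestins and 21 acute phase genes was called either, with Txnip at -1, Arrdc4 at -0.64, Orm3 at -1.08 and Orm2 at -1.06. In lean mice 3 of the gluconeogenesis genes, 6 of the amino acid genes and 5 of the oxidation genes fell, where 7.28% of all genes did. Pck1, the first committed enzyme of gluconeogenesis, had 1380, 1150 and 810 RPKM in unfed and 712, 737 and 527 RPKM in fed DIO mice. These groups do not overlap, yet the change of -0.74 ± 0.26 was not called (limma, adjusted p = 0.11). In lean mice Pck1 fell by 2.55, and the difference was not called (limma, adjusted p = 0.052). Ppargc1a, a coactivator of fasting genes, had 1.64 to 3.58 RPKM in unfed and 0.911 to 1.81 RPKM in fed DIO mice, a change of -0.92 ± 0.25 at the edge of the threshold (limma, adjusted p = 0.05) that was not called.

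Of 24 genes linked to GR, 1 fell in DIO mice and none rose, with a median of -0.09, which is close to the 2.48% of all genes that fell. The gene that fell was Klf9, a Krüppel-like factor, with 34.6, 28.2 and 28.0 RPKM in unfed and 21.8, 18.1 and 17.5 RPKM in fed DIO mice, and it was named after its value had been seen. Its call was lost without unfed DIO mouse 1 or fed DIO mouse 2 or 3 (-0.75 to -0.55). In lean mice 17 of the 24 fell, against 7.28% of all genes, and 2 rose, with a median of -1.2. Of 20 insulin and FOXO linked genes, 3 fell in DIO mice (Igfbp1, Ulk1 and Insr, the insulin receptor) against 14 in lean mice, where 2.48% and 7.28% of all genes fell, with medians of -0.41 and -1.06. The call of Insr was lost without unfed DIO mouse 1 or fed DIO mouse 2 or 3 (-0.57 to -0.41). Of these 20 genes, the difference between the diets was called as more positive in DIO mice for 2 (Igfbp1 and Angptl4). It was called as more negative for 1 (Gadd45a). For Ulk1 and Insr the difference was not called (limma, adjusted p = 0.3 and 0.89). These lists were chosen with results on these mice known, so their counts are no independent evidence of a direction. Cdkn1a and Mt2, which had the largest changes of the GR list, were not called (1.14 and -1.37, limma, adjusted p = 0.33 and 0.27).

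**Figure D3:**
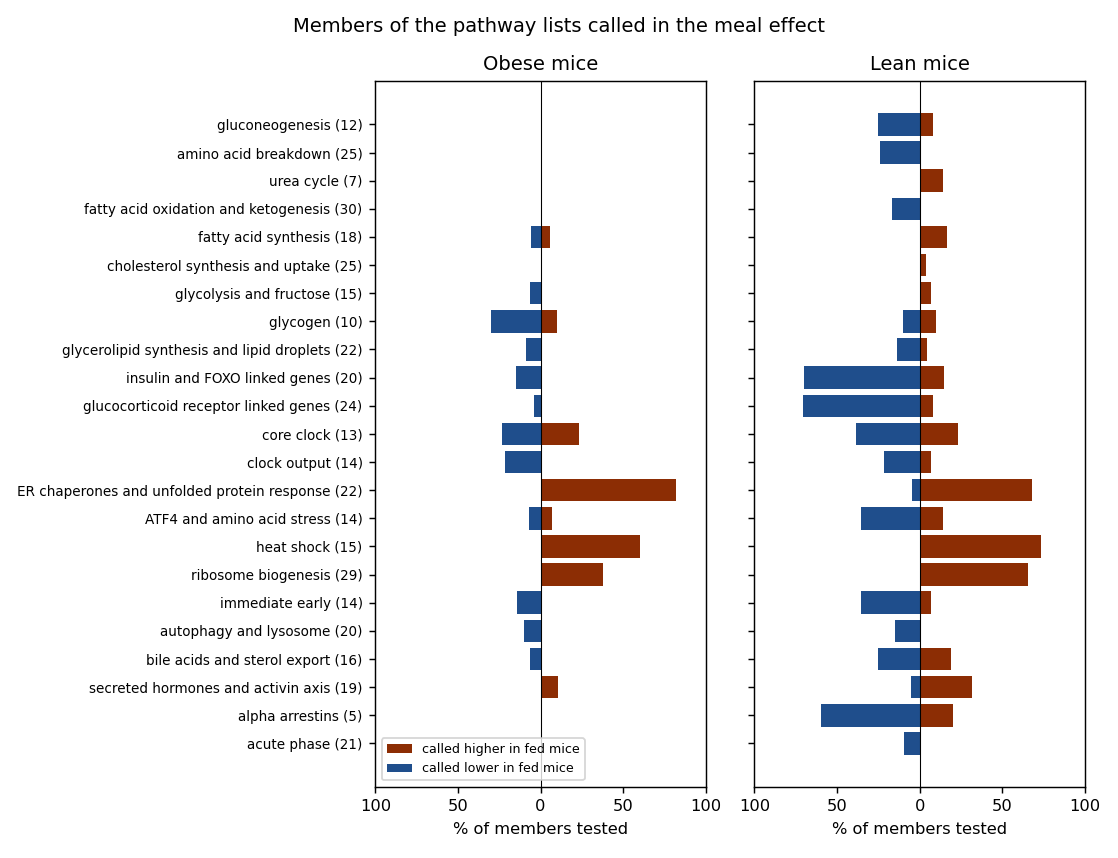
Percent of the members tested of each of the 23 pathway lists (number tested in brackets) that were called higher, to the right, or lower, to the left, in fed against unfed mice. In DIO mice the bars of ER chaperones (18 of 22), heat shock (9 of 15) and ribosome biogenesis (11 of 29) lie to the right. Rises in lean mice were 15, 11 and 19 for these lists. The bars of GR linked genes (1 of 24 lower) and insulin and FOXO linked genes (3 of 20) are short beside those of lean mice (17 and 14). The difference between the diets was called for 5 of the GR linked genes. For the insulin and FOXO list it was called as more positive in DIO mice for 2 and more negative for 1.

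Lean mice of the diet experiment were fed chow, and this meal raised 1843 genes (16.1%) and lowered 832 (7.28%). Of the 591 genes that rose in DIO mice, 423 (71.6%) also rose in lean mice, and of the 283 that fell, 127 (44.9%) fell there. Read from the lean side, 423 of the 1843 genes that rose (23.0%) and 127 of the 832 that fell (15.3%) were called in DIO mice. The direction was the same in DIO mice for 88.5% and 81.1% of the lean genes, but the median change was smaller, at 0.26 in DIO against 0.52 in lean mice for genes that rose in lean mice, and -0.22 against -0.54 for those that fell. These genes were chosen by their lean values, so the lean medians are a description. Chosen by their DIO values, the genes that fell in DIO mice had a median of -0.59 there and -0.32 in lean mice, and those that rose had 0.53 and 0.51. With median-ratio scaling of the libraries the lean counts were 1170 higher and 1187 lower.

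**Figure D4:**
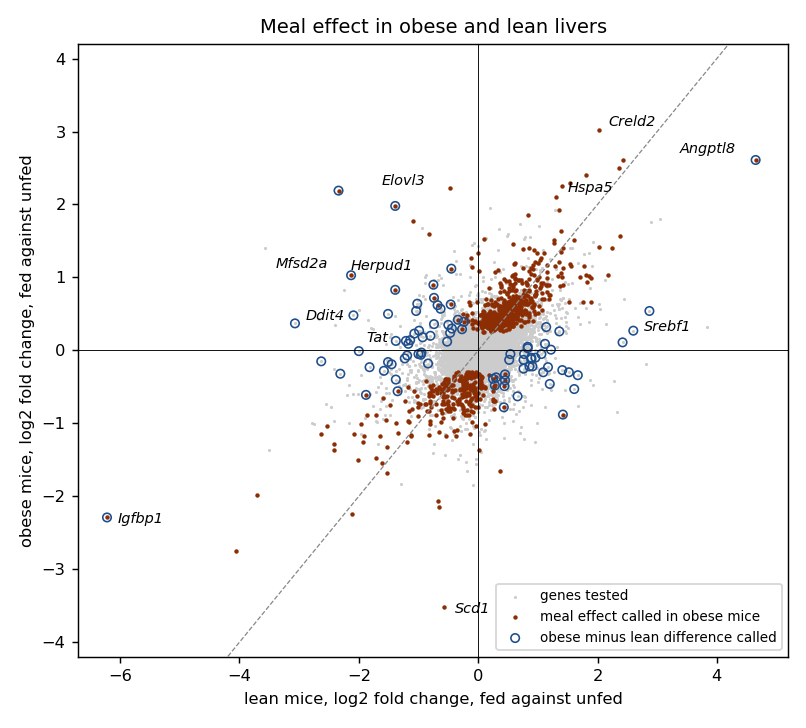
Log2 fold change, fed against unfed, of each of the 11434 genes tested in lean mice (horizontal axis) and DIO mice (vertical axis). Filled points were called in DIO mice, rings mark the 85 genes whose meal effect differed between the diets, and the dashed line marks equal change.

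The difference between the meal effects was tested directly and was called for 85 genes (0.743% of those tested). For 48 of them the DIO effect was more positive and for 37 more negative than the lean effect. With median-ratio scaling the split was 74 and 34, and with quantile normalization 62 and 26. The count without 1 mouse lay between 29 (without unfed lean mouse 2 or fed lean mouse 3) and 150, and it was 150 without unfed DIO mouse 1 and 133 without unfed DIO mouse 2. Of the 48, 46 fell in lean mice, and their median changes were -1.11 in lean and 0.21 in DIO mice. All 3 unfed DIO mice lay below all 3 unfed lean mice for 45 of the 48, and this held for 6.59% of all genes tested. All 3 fed DIO mice lay above the fed lean mice for 30 of the 48 (17.5% of all genes). Of the 37, 34 rose in lean mice, and for 34 the unfed DIO mice lay above the unfed lean mice, against 16.0% of all genes. Since the unfed groups enter the difference, these counts describe it and do not support it.

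Tat, the first enzyme of tyrosine breakdown and a classic GR target, had 599, 670 and 403 RPKM in unfed and 589, 520 and 522 RPKM in fed DIO mice. In lean mice it had 2460, 2330 and 2250 RPKM unfed and 497, 649 and 627 RPKM fed. Thus 3 of the 4 groups overlapped and the unfed lean mice alone were high. The change was -0.01 ± 0.17 in DIO and -2 in lean mice, a difference of 1.99 ± 0.24 (limma, adjusted p = 0.0081). Ddit4, an inhibitor of mTOR that glucocorticoids and stress induce, also stood high in the unfed lean mice alone. It had 2.19, 3.42 and 1.77 RPKM in unfed and 2.42, 5.18 and 2.63 RPKM in fed DIO mice, against 76.4, 43.4 and 62.5 RPKM in unfed and 4.95, 5.37 and 10.6 RPKM in fed lean mice. The difference was 3.45 ± 0.48 (limma, adjusted p = 0.010). Igfbp1 fell in both diets, but the unfed lean mice had 246, 222 and 259 RPKM and the fed lean mice 1.39, 4.30 and 3.26 RPKM, so the lean fall was larger by 3.93 ± 0.59 (limma, adjusted p = 0.017), a call lost without fed DIO mouse 2. G6pc, the last enzyme of glucose release, had 60.3, 202 and 171 RPKM in unfed and 194, 173 and 168 RPKM in fed DIO mice, against 448 to 507 RPKM and 97.1 to 150 RPKM in lean mice. Its difference of 2.56 ± 0.50 (limma, adjusted p = 0.047) was lost without each of 10 of the 12 mice.

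Angptl4, an inhibitor of lipoprotein lipase induced by fasting, was intermediate in DIO mice. It had 42.4, 71.2 and 77.8 RPKM in unfed and 69.2, 56.6 and 44.0 RPKM in fed DIO mice, which overlap, between the unfed lean mice at 114 to 121 RPKM and the fed lean mice at 16.0 to 20.7 RPKM. The difference was 2.49 ± 0.30 (limma, adjusted p = 0.0081). Lipg, the endothelial lipase, fell in lean mice and was not called in DIO mice, with a difference of 2.01 ± 0.24. Of the GR list, the difference was called for Tat, Ddit4, Angptl4, Tsc22d3 and Sgk1. The last 2, a leucine zipper protein and a kinase that glucocorticoids induce, were named after their values had been seen and had differences of 1.67 and 1.26, each lost without 10 of the 12 mice.

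**Figure D5:**
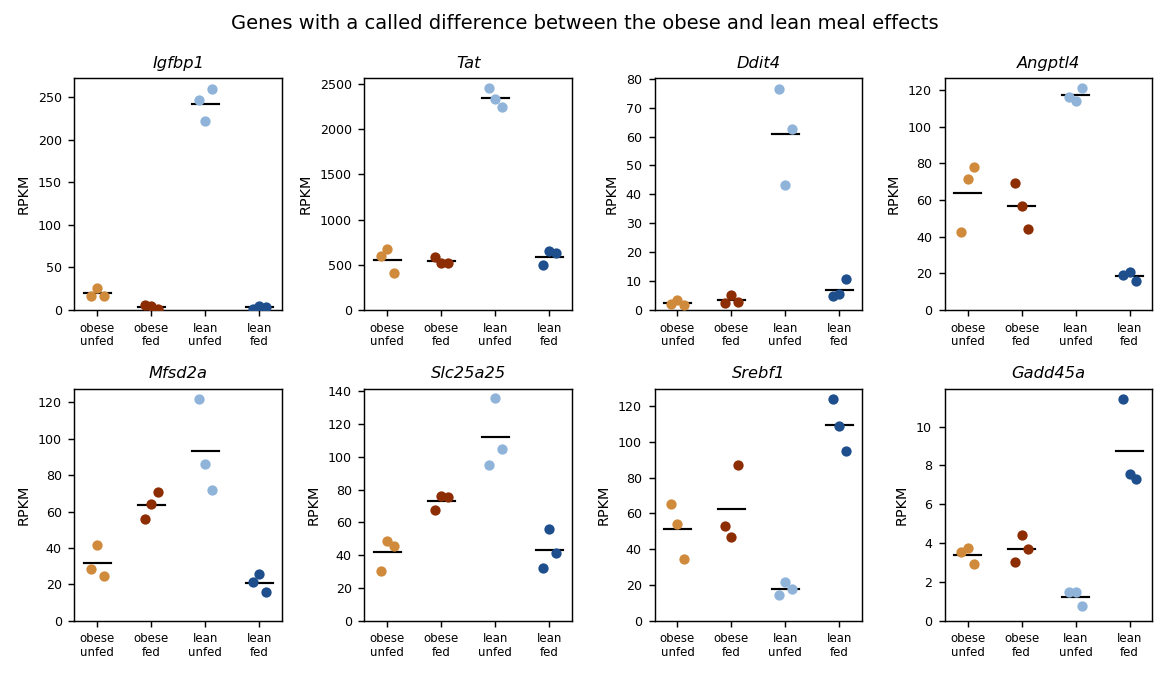
RPKM of 8 genes whose meal effect differed between DIO and lean mice, with 1 point per mouse and the mean of the group as a line. The unfed lean mice stand alone at a high level for Igfbp1, Tat and Ddit4, Mfsd2a and Slc25a25 rise in DIO and fall in lean mice, and Srebf1 and Gadd45a are highest in fed lean mice and lowest in unfed lean mice, with both DIO groups between.

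A set of 15 genes was called in opposite directions by the meal, 10 that rose in DIO and fell in lean mice and 5 that fell in DIO and rose in lean mice. The difference was called for all 15. They were chosen by both effects that enter the difference, so this count describes the choice and does not support it. Mfsd2a, a carrier of lysophospholipids with omega-3 fatty acids, had 28.3, 41.6 and 24.8 RPKM in unfed and 55.9, 64.3 and 70.7 RPKM in fed DIO mice. It rose by 1.03 ± 0.24 in DIO mice, whereas in lean mice it fell from 122, 86.0 and 71.7 RPKM to 21.2, 25.8 and 15.6 RPKM. The difference was 3.16 ± 0.34 (limma, adjusted p = 0.0051) and was kept when any 1 of the 12 mice was left out, whereas the rise in DIO mice was lost without unfed DIO mouse 1 or 3 or fed DIO mouse 2 or 3 (0.88 to 1.24). Slc25a25, a mitochondrial carrier of ATP-Mg and phosphate, had 30.4, 48.7 and 45.8 RPKM in unfed and 67.8, 76.3 and 75.6 RPKM in fed DIO mice, and it fell in lean mice from between 95.1 and 136 RPKM to between 31.8 and 55.8 RPKM. Its rise in DIO mice was called at an adjusted p of 0.042 (limma) and was lost with quantile normalization and without unfed DIO mouse 1 or any fed DIO mouse (0.62 to 0.96), while the difference of 2.22 ± 0.31 was kept in each of these.

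Herpud1, a membrane protein of ER-associated degradation, was the only member of the ER list that fell in lean mice. It had 222, 224 and 193 RPKM in unfed and 370, 424 and 402 RPKM in fed DIO mice, against 354, 412 and 365 RPKM in unfed and 214, 300 and 173 RPKM in fed lean mice. The fed DIO mice thus overlapped the unfed lean mice, and the difference was 1.65 ± 0.23 (limma, adjusted p = 0.011). For the other 21 ER genes the difference was not called. The DIO change was the larger in 20 of all 22, where the median difference over all genes tested was -0.07. These genes were read in the same mice, so that count is no test and does not show a stronger ER response in DIO mice. Them4, a thioesterase, had 10.2, 10.4 and 10.5 RPKM in unfed and 18.0, 16.0 and 14.6 RPKM in fed DIO mice, and fell in lean mice from between 14.3 and 16.3 RPKM to between 8.56 and 10.3 RPKM. Its difference was 1.29 ± 0.13. Noct, a rhythmic phosphatase of NADPH, Shb, an adaptor of tyrosine kinases, Clic4, a chloride intracellular channel protein, and Btaf1, an ATPase that removes TBP from DNA, rose by 0.72, 0.63, 0.42 and 0.29 in DIO mice, and each of these calls was lost without fed DIO mouse 2 or 3. Those of Noct, Clic4 and Btaf1 were also lost without unfed DIO mouse 1, at 0.74, 0.31 and 0.28. In number, the call of Noct was lost without 5, that of Clic4 without 4 and that of Btaf1 without each of the 6 DIO mice. That of Clic4 was also lost with quantile normalization and that of Btaf1 with median-ratio scaling. The remaining 2 of the 10 were small RNAs.

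The 5 genes that fell in DIO and rose in lean mice were Klhdc7a, Inf2, Rit1, Faap20 and 1 gene model without a name. Klhdc7a, a kelch domain protein, had 6.82, 3.95 and 4.2 RPKM in unfed and 2.32, 2.22 and 2.70 RPKM in fed DIO mice, against 0.822, 1.51 and 0.987 RPKM in unfed and 2.94, 3.49 and 4.96 RPKM in fed lean mice. The fall of 0.88 on the log2 scale in DIO mice was lost without unfed DIO mouse 1 or any fed DIO mouse (-1.01 to -0.65), while the difference of -2.30 ± 0.32 (limma, adjusted p = 0.010) was kept. Inf2, a formin that acts where mitochondria divide, fell by 0.41 from 13.2, 11.9 and 12.9 RPKM to 8.70, 9.16 and 10.4 RPKM. Rit1, a small GTPase, and Faap20, a protein of DNA crosslink repair, fell by 0.37 and 0.33, and the calls of Inf2, Rit1 and Faap20 in DIO mice were lost without fed DIO mouse 2 (-0.48 to -0.36, -0.43 to -0.30 and -0.36 to -0.29). In number, the call of Rit1 was lost without 4 and that of Faap20 without 5 of the 6 DIO mice, for Faap20 with unfed DIO mouse 1 among them. The genes called in opposite directions, other than Klhdc7a, Mfsd2a, Slc25a25 and Herpud1, were named after their values had been seen.

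Among genes whose rise was smaller in DIO mice, Srebf1, the master regulator of fatty acid synthesis, had 65.4, 54.2 and 34.3 RPKM in unfed and 53.1, 46.5 and 87.3 RPKM in fed DIO mice. In lean mice it had 14.2, 21.7 and 17.5 RPKM unfed and 124, 109 and 94.8 RPKM fed, so the DIO groups overlapped each other and lay between the lean ones. The difference was -2.33 ± 0.38 (limma, adjusted p = 0.023) and, like that of the next gene, was lost without 6 of the 12 mice. Mid1ip1, which activates acetyl-CoA carboxylase, had 11 to 26.1 RPKM in unfed and 18.5 to 25.8 RPKM in fed DIO mice, and in lean mice rose from between 6.77 and 8.32 RPKM to between 48.9 and 65.1 RPKM. Its difference was also -2.33. Gadd45a, a stress gene of DNA repair and growth arrest, had 2.91 to 3.76 RPKM in unfed and 3.03 to 4.40 RPKM in fed DIO mice, and its difference was -2.31 ± 0.30 (limma, adjusted p = 0.0082). Cyp7a1, the rate-limiting enzyme of bile acid synthesis, had 85.2, 83.1 and 60.0 RPKM in unfed and 39.7, 72.2 and 79.1 RPKM in fed DIO mice and rose in lean mice to between 131 and 148 RPKM. Its difference of -1.82 ± 0.36 was close to the threshold (limma, adjusted p = 0.047) and was lost without 11 of the 12 mice. Elovl1, an elongase of long saturated fatty acids, had 10.3 to 13.9 RPKM in both DIO groups and rose by 1.06 in lean mice (difference -1.11, limma, adjusted p = 0.035). Rnf186, a ubiquitin ligase, and Sh3bp2, an adaptor protein, had differences of -2.14 and -1.40. The calls of Elovl1 and Rnf186 were each lost without 7 of the 12 mice.

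For several other genes of the diet experiment the difference was not called. Arrdc3, an alpha arrestin, had 25.7, 38.6 and 47.8 RPKM in unfed and 38.4, 37.2 and 13.6 RPKM in fed DIO mice, and rose in lean mice by 2.27, but the difference of -2.69 was not called (limma, adjusted p = 0.060). Aacs, a cytosolic ligase that returns ketone bodies to lipid synthesis, had a difference of -3.17 (limma, adjusted p = 0.054). The changes of Ppara, Insig2, Acot1, Klf15, Abca1, Agpat2, Setdb2 and Lpin1 were not called in DIO mice and ranged from -1.01 for Lpin1 to 1.03 for Insig2, and the difference was not called for any of these 8.

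Deposited peak lists of GR and FOXO1 held 10446 and 8546 positions on mm9, called in livers of unfed wild type mice that were not on the HFD. A GR peak lay within 50 kb of a start site for 62.1% of the genes that fell and 52.7% of those that rose in DIO mice, against 51.6% of all 9985 genes tested with a position. For FOXO1 the shares were 68.8% and 55.7%, against 54.2%. The genes that fell in lean mice had shares of 66.1% for GR and 70.1% for FOXO1. Among the genes with a called positive difference, 36 of 41 (87.8%) had a GR peak and 35 (85.4%) a FOXO1 peak within 50 kb, and among those with a called negative difference it was 22 of 32 (68.8%) for each factor. For the positive differences, within 20 kb it was 33 of 41 (80.5%) for GR, against 34.4% of all genes, and 30 of 41 (73.2%) for FOXO1, against 37.6%. Peaks of both factors lay 2.48 and 2.50 kb from a start of Tat, 3.06 and 3.04 kb from Igfbp1 and 0.68 and 0.351 kb from Ddit4, and within 0.05 kb of Herpud1 and G6pc. Binding in fed or DIO mice was not analysed here.

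The meal effect was also present in a separate set of chow-fed mice injected with vehicle, 4 unfed and 4 fed, where 284 genes rose (2.52%) and 65 fell (0.578%) of 11251 tested. Of the 591 genes that rose in DIO mice, 586 had a value there, 93 rose and 544 had a positive change, with a median of 0.33. Of the 283 that fell, 279 had a value, 16 fell and 202 had a negative change, with a median of -0.11. The DIO medians, by whose values these genes were chosen, were 0.53 and -0.59. Creld2, Sdf2l1, Hyou1, Hspa5 and Manf rose by 1.71, 1.96, 1.40, 1.18 and 1.36 in the vehicle-injected mice, and Angptl8 by 2.52. Igfbp1, Tat, Ddit4 and Angptl4 fell there by 4.08, 1.08, 1.87 and 1.52, whereas in DIO mice Igfbp1 alone of these fell. The difference between DIO and vehicle-injected mice was not tested, because the libraries belong to separate experiments.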

How the data were processed

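Liver poly(A) RNA was sequenced from single mice. Per the labels and the study's methods, the authors aligned reads to mm9 with STAR, counted them with HOMER and deposited RPKM values. Versions were not given in the sources used here. The RPKM table held 35707 RefSeq IDs. The ID with the highest mean was kept for each of 24312 symbols, and 11434 genes that averaged 0.5 RPKM or more across the 12 diet libraries were tested. The 300 IDs without a symbol, 0.528% of the RPKM sum, were left out. Values were analysed as log2(RPKM + 0.5), so changes of low genes are understated. One linear model over the 12 libraries was fitted with limma 3.58.1 in R 4.3.3, with a variance trend and Benjamini-Hochberg adjustment. It gave the meal effect in DIO mice, in lean mice and their difference, and was tested on simulated data. An exact permutation test of 3 against 3 mice cannot go below p = 0.1 and was not used. The authors called the deposited peak positions of GR and FOXO1 with HOMER on mm9. Distances ran from the peak center to the nearest GENCODE transcript start of each gene on mm9. RefSeq promoters (GRCm38.p6) were searched for motifs.

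Samples were grouped by the labels. Named were the 15 largest rises and 15 largest falls without overlap, the 10 largest differences in each direction (all averaging 1 RPKM or more), genes of the study's diet experiment and leading list members. All genes of the ER list were shown, and Alg12, Ero1b and the genes so marked in the text were added. The members and lists were chosen with earlier results of these data known. Depth was estimated from the RPKM steps of single reads. Alternatives were another pseudocount, filter, scaling, RefSeq ID choice, variance trend, sample set, replicate block, threshold and peak distance, and leaving out each mouse. Some genes that the naming rule covers are not reported here.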

Additional observations from a re-analysis of the deposited data

Results flagged for a closer look

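The meal effect differed between DIO and lean mice, by a test of the difference itself (limma, adjusted p under 0.05 over all genes tested), for the 28 genes given here with the DIO change minus the lean change on the log2 scale. Those with a more positive effect in DIO mice were Igfbp1 (3.93), Ddit4 (3.45), Mfsd2a (3.16), G6pc (2.56), Angptl4 (2.49), Slc25a25 (2.22), Lipg (2.01), Tat (1.99), Tsc22d3 (1.67), Herpud1 (1.65), Noct (1.46), Them4 (1.29), Sgk1 (1.26), Shb (1.09), Clic4 (0.75) and Btaf1 (0.55). Those with a more negative effect were Mid1ip1 (-2.33), Srebf1 (-2.33), Gadd45a (-2.31), Klhdc7a (-2.30), Rnf186 (-2.14), Angptl8 (-2.04), Cyp7a1 (-1.82), Sh3bp2 (-1.40), Elovl1 (-1.11), Inf2 (-0.86), Faap20 (-0.78) and Rit1 (-0.67).

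The calls of Ddit4, Mfsd2a, Angptl4, Slc25a25, Lipg, Tat, Gadd45a, Klhdc7a, Sh3bp2, Herpud1, Them4 and Inf2 were kept when any 1 of the 12 mice was left out. Those of Cyp7a1 and Rit1 were lost without 11 of the 12 mice, and those of G6pc, Btaf1, Tsc22d3 and Sgk1 without 10.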

How the results depend on the processing

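The counts rest on few mice. With the 6 DIO libraries fitted alone, 51 genes rose and 12 fell in DIO mice, against 591 and 283 with the lean libraries in the fit. Without a filter on low values the counts were 378 and 163, and at an adjusted p under 0.01 they were 110 and 30. Leaving out 1 of the 12 mice gave 139 to 621 genes that rose and 57 to 414 that fell. For lean mice, 1170 genes rose when libraries were scaled by their median ratio and 1176 after quantile normalization, against 1843, and 802 rose and 370 fell at 0.01. Leaving out 1 mouse gave 1174 to 2217 and 525 to 1014. The share of lean calls that were rises went from 68.9% to 49.6% and 50.5% under these scalings. For the difference between the diets, 85 genes were called in all, against 29 without the filter (25 of them among the 85), 15 at 0.01, and 29 to 150 without 1 mouse. Counts of lists without unfed DIO mouse 1 or under the other scalings were chosen after seeing the data. Without that mouse the count was 5 for ribosome biogenesis and 1 for core clock genes that fell. For genes that rose, GR peaks lay near 32.4% at 20 kb and 69.7% at 100 kb, and FOXO1 peaks near 38.5% and 71.8%. For genes that fell the shares were 48.2% and 77.1% for GR and 54.9% and 79.1% for FOXO1. Of 78 named genes called in DIO mice, 29 kept their call when any 1 of the 6 DIO mice was left out. Fitting the 6 DIO libraries alone lost 59 of the 78, among them Igfbp1, Dbp, Klhl24, Calr and Hsp90b1. No called value changed sign under the alternatives run. The fit of all RefSeq IDs could not change a sign here, because each gene was read at the ID nearest its main value. Values not called with all mice could change sign, such as those of Fasn (-0.19 to 1.28 without 1 DIO mouse), Sqle (-1.78 to 0.48) and Angptl4 (-0.42 to 0.02). Without unfed DIO mouse 1, Fasn, Mid1ip1, Ppara and Txnip were called in DIO mice at 1.28, 0.92, -0.62 and -1.41. Leaving out another DIO mouse gave calls for Ppargc1a, Insig2, Klf15, Cdkn1a, Arrdc4, Derl3, Tsc22d3 and Irs2. The cause of these shifts was not tested.

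Replicate numbers did not pair the mice. The correlation of deviations of equally numbered unfed and fed mice was 0.07, -0.20 and -0.12 in DIO and 0.12, 0.07 and -0.02 in lean mice. With the replicate block, 480 genes rose and 231 fell in DIO mice and the difference between the diets was called for 45 genes.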
